A study of Mus musculus with 12 samples.

Results

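Immunity-related GTPases (IRGs) were followed across T cells treated with the solvent DMSO or with a STING agonist. The genes were taken by name and comprised Irgm1, Irgm2, Igtp, Iigp1, Tgtp1, Tgtp2 and Gm12250, 7 of the 38924 gene identifiers in the deposited counts. All 7 passed the filter on low counts, which kept 13811 genes. The data were 12 RNA sequencing libraries in 4 groups of 3: WT with DMSO, WT with 10-carboxymethyl-9-acridanone (CMA, a cell-permeable small molecule that activates mouse STING), STINGgt/gt with DMSO and STINGgt/gt with CMA. STINGgt/gt mice, called STING KO in the sample labels, carry the Goldenticket missense mutation in Tmem173, the gene for STING, and lack functional protein in every cell, not in T cells alone. All mice were C57BL/6 and 8 to 12 weeks old. All cells were naive CD4+ T cells sorted from spleen, expanded for 2 days on antibodies to CD3 and CD28, rested for 1 day and then treated for 16 h according to the sample descriptions (overnight according to the methods). The study describes the libraries of a group as biological replicates. Neither that description nor the labels say whether they came from separate animals, so p-values measure the spread between these libraries.

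IRGs are large GTPases that interferons induce strongly in mice and that protect cells against bacteria and protozoa living in vacuoles. They fall into a pair of classes named after a motif in the nucleotide-binding loop. The GMS proteins Irgm1, Irgm2 and Igtp (also called Irgm3) sit on the cell's own membranes and hold the effectors in an inactive state there. The GKS proteins are the effectors: Iigp1 (Irga6), Tgtp1 and Tgtp2 (both Irgb6) and Gm12250 (Irgb10) load onto the vacuole of the intruder together with guanylate-binding proteins and break it open. Irgm1 is also known for the survival of activated T cells during interferon responses.

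Library totals on genes lay between 27414450 and 43784910 reads (median 36418677), and levels are given as CPM (read counts divided by the library total after TMM adjustment). Each of the 7 genes had at least 1040 counts in every library. Replicates differed by more than sampling noise in every group (chi-square over its degrees of freedom 2.63 to 29.9). T-cell markers (Cd3d, Cd3e, Cd3g, Cd4, Cd28, Cd5 and Lck) were present in every library and summed to between 2634 and 3054 CPM. The summed B-cell markers ranged from 210 to 219 CPM in WT with DMSO, from 288 to 310 in WT with CMA, and from 96.4 to 101 in STINGgt/gt, and none of the 6 was at 0 in any group. The 7 myeloid markers summed to between 57.4 and 64.5 CPM in WT with DMSO, 70.7 and 74.8 in WT with CMA, and 38.9 and 44.2 in STINGgt/gt. Most of this sum was Cst3, with a mean of 38.6 CPM in WT with DMSO and 55.7 with CMA. Several other myeloid markers fell with CMA in WT, as given below. The 6 markers of CD8 and natural killer cells summed to between 65.8 and 79.2 CPM in WT and 53.2 and 64.0 in STINGgt/gt. The part of other cells in the results was not tested. Tmem173 mRNA was 184, 190 and 183 CPM in WT with DMSO and 181, 170 and 168 in STINGgt/gt with DMSO, and since the mutation is a missense change its mRNA level does not check the genotype labels.

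Of the 7 genes, 6 lie on mouse chromosome 11 in GRCm38. Irgm1 (ENSMUSG00000046879) spans 48861968 to 48871683 on the minus strand, followed by Tgtp1 (ENSMUSG00000078922) at 48985327 to 48994172 and Tgtp2 (ENSMUSG00000078921) at 49057194 to 49064206, both on the minus strand. On the plus strand, Gm12250 (ENSMUSG00000082292) covers 58187739 to 58189012, Igtp (ENSMUSG00000078853) 58199556 to 58207591 and Irgm2 (ENSMUSG00000069874) 58199618 to 58222782. GENCODE M21 annotates Gm12250 as a processed pseudogene of a single exon and all the others as protein coding. RefSeq places the start of the Gm12250 transcript at 58183843, before the GENCODE interval. Which interval was used for the counting is not given, and the log2 table, which lists positions, lacks the gene. Tgtp1 and Tgtp2 are near-identical copies: 85.8% of the 50-base stretches of Tgtp2 transcripts also occur in Tgtp1, and 79.4% the other way. Only reads with a single best position were counted, so both are undercounted and the split between them is uncertain. Igtp and Irgm2 overlap on the same strand and share 162 exon bases, 8.01% of the exons of Igtp and 4.39% of those of Irgm2. Tgtp1 likewise overlaps Gm12185, which covers 6.96% of its exon bases.

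The promoters are shown because these genes moved together and because the binding motifs of interferon-activated factors can be read in them. The set of RefSeq promoters used here (GRCm38.p6) held an entry for 6 of the 7 genes. It lacked Iigp1, whose promoter was therefore not examined. The window searched was the 250 bases before the start, on both strands. The core of the interferon-stimulated response element (ISRE), GAAA, then NN, then GAAA, was found in 6 of 6, against 2.98% of all 32851 promoters. The gamma-activated site (GAS), TTCNNNGAA, was found in 5 of 6, against 7.02%, and both motifs together in 5 of 6, against 0.332%. The 6 promoters are not independent, since Tgtp1 and Tgtp2 are near-identical copies and the Irgm2 and Igtp stretches below are nearly the same. These motif matches are letters in a window, not evidence of binding. The stretches holding them read as follows, 5′ to 3′ along the gene, with the motifs in capitals.
Irgm1 (chr11:48871428-48871457, minus): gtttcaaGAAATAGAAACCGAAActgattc
Irgm2 (chr11:58214883-58214952, plus): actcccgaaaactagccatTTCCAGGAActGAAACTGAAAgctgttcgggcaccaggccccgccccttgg
Igtp (chr11:58199486-58199555, plus): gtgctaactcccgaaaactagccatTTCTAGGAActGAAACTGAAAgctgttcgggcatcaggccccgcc
Tgtp1 (chr11:48992284-48992353, minus): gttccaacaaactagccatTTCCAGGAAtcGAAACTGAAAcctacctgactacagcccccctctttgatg
Tgtp2 (chr11:49064243-49064312, minus): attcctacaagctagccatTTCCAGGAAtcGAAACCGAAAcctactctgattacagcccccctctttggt
Gm12250 (chr11:58183744-58183813, plus): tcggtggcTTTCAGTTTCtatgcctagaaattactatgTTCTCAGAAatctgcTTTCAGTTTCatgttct

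In Irgm2, Igtp, Tgtp1 and Tgtp2 the GAS precedes the ISRE by a gap of 2 bases, and the ISRE ends 55, 25, 68 and 61 bases before the start. Gm12250 has 2 ISRE cores, both on the opposite strand and 1 on each side of the GAS, with a gap of 6 bases to the nearer. Irgm1 is the exception, with 2 overlapping ISRE cores ending 15 bases before the start and no GAS in the window. The Irgm1 stretch lies inside an annotated exon of a GENCODE transcript and is therefore shown in short form.

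CMA raised the mRNA of all 7 IRGs in WT T cells, by 2.76-fold (Igtp) to 3.72-fold (Irgm2). The comparison asks what activation of STING does to T cells. At the same threshold 33.0% of all genes tested were higher, 37.4% were lower and 70.4% changed in either direction, so passing the test was common. The size of the rise was less common: each IRG stood among the upper 3.71% to 5.52% of genes by log2 fold change. The median log2 fold change of the 7 was 1.74, beside -0.04 over all genes. In bulk RNA a change in the proportion of cells of a type and a change in RNA per cell cannot be told apart.

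Among the regulatory GMS members, Irgm1 measured 121, 116 and 130 CPM with DMSO and 414, 393 and 436 CPM with CMA in WT T cells. All libraries with CMA lay far above all with DMSO, and the log2 difference was 1.76 ± 0.051 (SE; adjusted p = 2.52e-14, edgeR). Irgm2, of which less is known than of its relatives, rose from 79.2, 76.4 and 82.2 CPM to 288, 284 and 312 CPM. Its log2 difference of 1.89 ± 0.052 (SE; adjusted p = 1.47e-14, edgeR) was the highest of the 7. Igtp, found on the endoplasmic reticulum, was the most abundant, with 364, 375 and 377 CPM with DMSO and 1012, 1005 and 1062 CPM with CMA. It had the lowest log2 difference, 1.47 ± 0.042 (SE; adjusted p = 2.14e-14, edgeR), but the largest gain in absolute terms, 655 CPM.

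Iigp1 (ENSMUSG00000054072) is the member outside the chromosome 11 clusters and lies at 60376027 to 60392634 on the plus strand of chromosome 18. This effector measured 75.4, 71.3 and 90.7 CPM with DMSO in WT T cells and 252, 256 and 283 CPM with CMA. The Iigp1 replicates were the most uneven of the 7 genes in WT with DMSO, yet the groups were far apart (log2 difference 1.73 ± 0.077 SE, adjusted p = 5.66e-12, edgeR). Tgtp1 went from 47.6, 48.0 and 50.5 CPM to 157, 155 and 175 CPM. Tgtp2 went from 37.9, 36.7 and 37.4 CPM to 126, 132 and 142 CPM. The copies had similar log2 differences, 1.74 ± 0.053 and 1.83 ± 0.049 (SE; adjusted p = 4.51e-14 and 9.28e-15, edgeR). With the counts of the copies summed into 1 feature, the difference was 1.78 ± 0.047. Gm12250 had 76.0, 70.4 and 81.2 CPM with DMSO and 213, 208 and 216 CPM with CMA. Its log2 difference of 1.48 ± 0.054 (SE; adjusted p = 4.63e-13, edgeR) was close to that of Igtp. In no member did a library with CMA fall within the range of those with DMSO, which held in this direction for 33.5% of all genes.

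**Figure D1:**
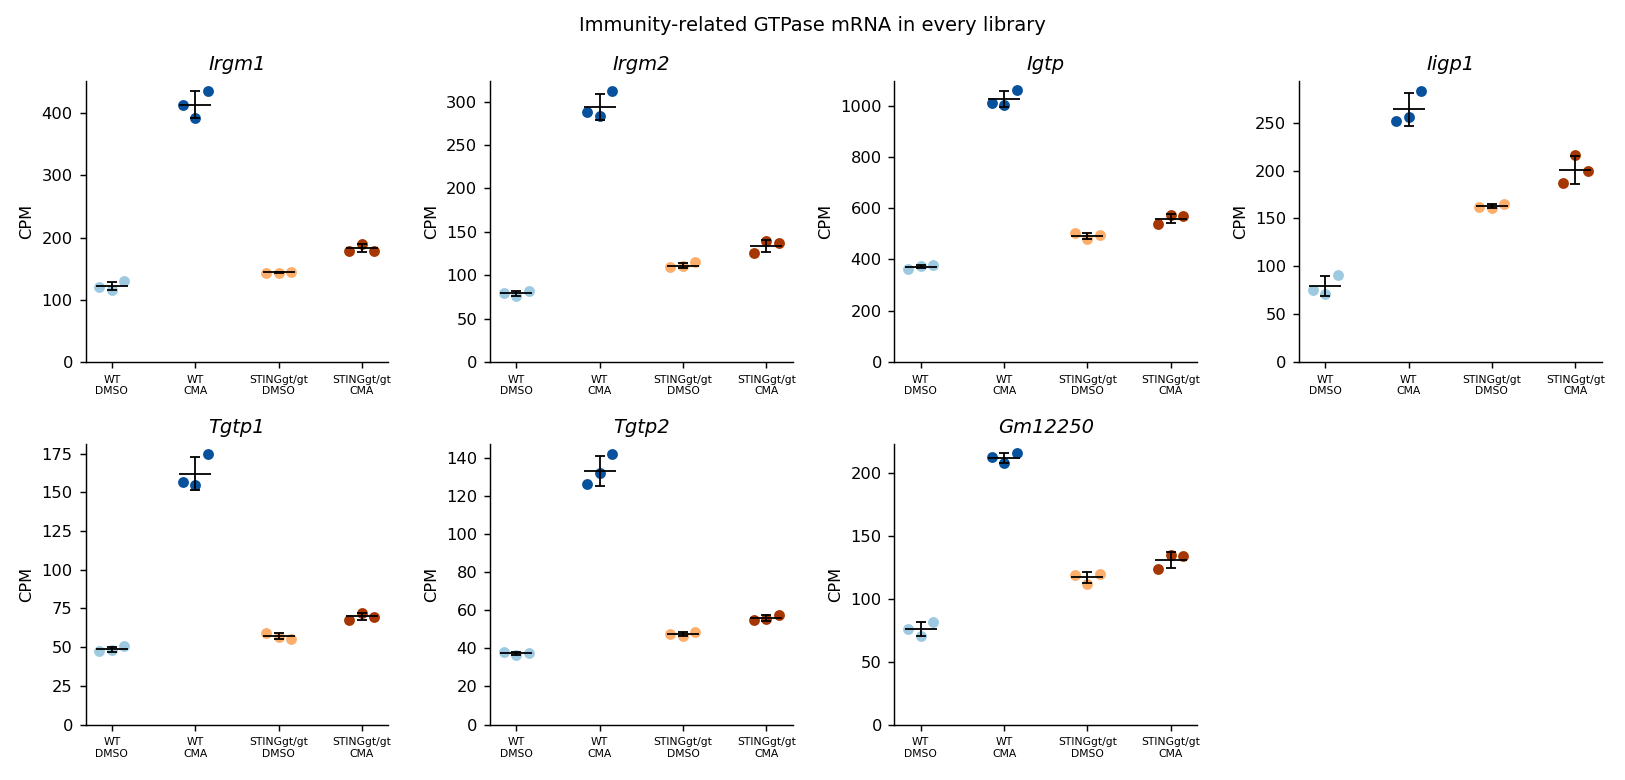
CPM (vertical axis, from 0) of each IRG in the 12 libraries, 1 panel per gene. Points are libraries, horizontal bars means and whiskers SD (n = 3). In every panel the WT libraries with CMA lie highest, those of WT with DMSO lowest, and those of STINGgt/gt in between.

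In STINGgt/gt T cells the same treatment left only a small rise. All 7 IRGs had a higher mean with CMA, by 1.11-fold (Gm12250) to 1.27-fold (Irgm1), and 5 of the 7 passed the test, at a threshold that 0.398% of all genes passed in this direction, 0.920% downward and 1.32% in either. The groups of all 7 were free of overlap, a state that 11.8% of all genes shared in this direction. The comparison with cells lacking functional STING asks how much of the response to CMA runs through STING.

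Irgm1 was 143, 143 and 145 CPM with DMSO and 179, 190 and 178 CPM with CMA in STINGgt/gt T cells. Its log2 difference of 0.35 ± 0.050 (SE; adjusted p = 0.00232, edgeR) was the largest of the 7 there. Irgm2 had 109, 110 and 115 CPM with DMSO and 126, 139 and 137 CPM with CMA (log2 0.27, adjusted p = 0.0138, edgeR). Igtp had 502, 479 and 495 CPM and then 539, 573 and 569 CPM (log2 0.19, adjusted p = 0.0321, edgeR). All 3 regulatory members therefore passed.

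Of the effectors, Tgtp1 rose from 59.3, 56.5 and 55.6 CPM to 67.6, 72.3 and 69.8 CPM in STINGgt/gt T cells (log2 0.29, adjusted p = 0.0102, edgeR). Tgtp2 rose from 47.7, 46.2 and 48.6 CPM to 54.7, 55.5 and 57.3 CPM (log2 0.23, adjusted p = 0.0218, edgeR). Iigp1 and Gm12250 did not pass, although the log2 difference of Iigp1 was no smaller than those of the Tgtp copies, and no difference between members was tested. Iigp1 had 162, 161 and 165 CPM with DMSO and 187, 216 and 200 CPM with CMA (log2 0.30 ± 0.074 SE, adjusted p = 0.0534, edgeR), and it passed under 7 of 19 alternatives, DESeq2 and library-size scaling among them. Gm12250 had 119, 112 and 120 CPM with DMSO and 124, 135 and 134 CPM with CMA (log2 0.16 ± 0.053 SE, adjusted p = 0.196, edgeR). Their libraries with CMA were all above those with DMSO as well, by a narrow margin for Gm12250, where the closest libraries were 120 and 124 CPM.

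How many of the 7 passed in STINGgt/gt depended on single libraries. Leaving out STINGgt/gt DMSO replicate 2, STINGgt/gt CMA replicate 2 or STINGgt/gt CMA replicate 3 left only Irgm1, and leaving out STINGgt/gt DMSO replicate 1 or 3 left 2 genes. The share of all genes passing upward was also small in these fits, at 0.0997% to 0.157%. With only the groups compared in the fit, all 7 passed, beside 2.04% of all genes in this direction. Under the alternatives run, 19 for each member but 18 for Gm12250, which the log2 table lacks, the log2 differences stayed above 0, and Irgm1 passed in all 19 with an adjusted p of at most 0.0212 (edgeR, DESeq2 or limma).

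The rise in WT exceeded that in STINGgt/gt for each of the 7 genes. The difference between the effects, tested as an interaction, ranged from 1.28 ± 0.058 for Igtp (SE, log2; adjusted p = 2.44e-11, edgeR) to 1.62 ± 0.072 for Irgm2 (adjusted p = 1.74e-11, edgeR). All 7 passed, where 27.2% of all genes did in this direction and 58.8% in either. In absolute terms the gain in STINGgt/gt was 8.75% (Tgtp2) to 13.3% (Irgm1) of the gain in WT for 6 of the genes and 20.7% for Iigp1. Summed over the family, the level rose from 814 ± 30 to 2507 ± 104 CPM in WT (SD, n = 3). In STINGgt/gt the sum went from 1132 ± 20.4 to 1335 ± 52.4 CPM (SD, n = 3).

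**Figure D2:**
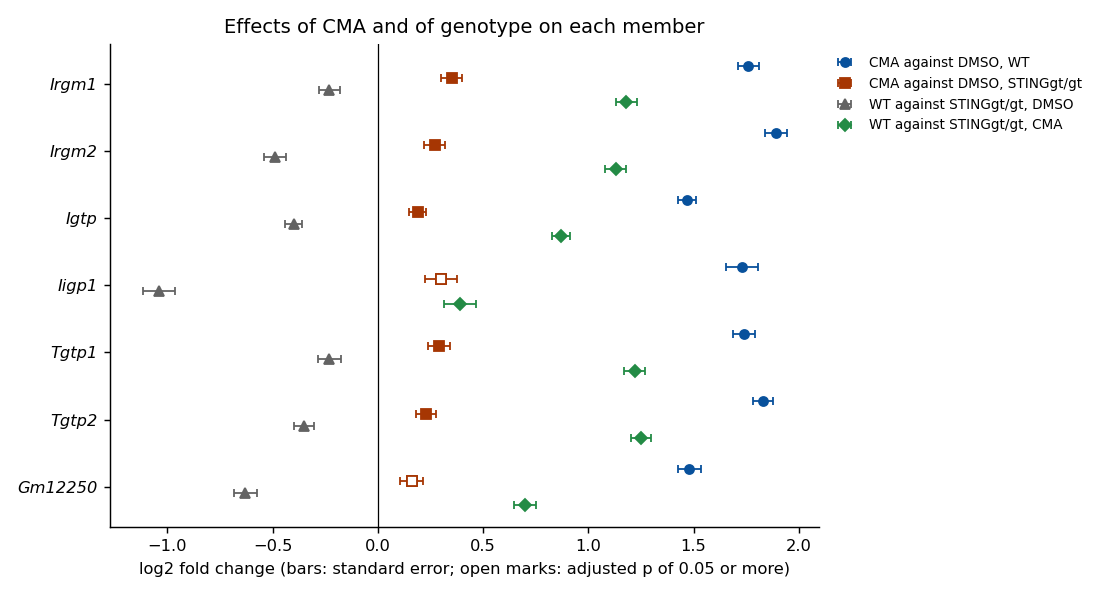
Log2 fold change (horizontal axis) of each IRG for CMA against DMSO within each genotype and for WT against STINGgt/gt within each treatment, with SE as bars and open marks for an adjusted p of 0.05 or more. The CMA effects in WT lie between 1.47 and 1.89, those in STINGgt/gt between 0.16 and 0.35, and the genotype effect changes side between DMSO and CMA for all 7.

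Without the agonist, all 7 IRGs were lower in WT than in STINGgt/gt T cells. Among all genes, 19.8% were lower in WT, 22.9% were higher and 42.7% differed in either direction. Iigp1 stood out. Its 3 WT libraries had 71.3 to 90.7 CPM and its 3 STINGgt/gt libraries 161 to 165 CPM, which is 2.06-fold higher in STINGgt/gt (log2 of WT against STINGgt/gt -1.04 ± 0.077 SE, adjusted p = 1.7e-08, edgeR). Of all genes, 98.4% had a higher value than Iigp1 in this comparison. Gm12250 was 1.55-fold higher in STINGgt/gt (log2 -0.63, adjusted p = 1.1e-07, edgeR), Irgm2 1.41-fold (log2 -0.49) and Igtp 1.32-fold (log2 -0.40). The shift was smaller for Tgtp2, at 1.27-fold, and for Irgm1 and Tgtp1, at 1.17-fold each (log2 -0.23 for both, adjusted p = 0.00144 and 0.00246, edgeR). No library of WT reached the range of STINGgt/gt for any member, which held in this direction for 22.6% of all genes.

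With CMA the order was the reverse, and all 7 were higher in WT, where 37.0% of all genes were higher and 73.5% differed. The libraries of each member did not overlap between genotypes, as for 39.7% of all genes in this direction. The log2 differences were 1.25 for Tgtp2, 1.22 for Tgtp1, 1.18 for Irgm1, 1.13 for Irgm2, 0.87 for Igtp and 0.70 for Gm12250. Iigp1 differed least, by 0.39 ± 0.074 (SE; adjusted p = 0.00016, edgeR), with 252 to 283 CPM in WT against 187 to 216 CPM in STINGgt/gt. The genes with the largest genotype difference under DMSO, Iigp1 and Gm12250, were thus those with the smallest under CMA. These comparisons share libraries with the CMA comparisons above.

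B-cell and myeloid markers moved between genotypes too. With DMSO all 6 B-cell markers (median log2 1.05) and all 6 tested myeloid markers (median 1.58) were higher in WT, the direction opposite to that of the IRGs. With CMA all 6 B-cell markers (median log2 1.57) and 5 of the 6 myeloid markers (median 1.18) were again higher in WT, now the same direction as the IRGs. Over all genes, 22.9% were higher in WT with DMSO and 37.0% with CMA. The part of these markers in the IRG levels was not tested. From DMSO to CMA in WT, 4 of 6 B-cell markers rose and 1 fell. Of the other lists, 3 of 6 myeloid markers, 4 of 6 CD8 and natural killer cell markers and 4 of 7 T-cell markers fell in that comparison, and 1 of each rose. Over all genes, 33.0% were higher and 37.4% lower there.

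Compared per length of annotated exon, Igtp was by far the most abundant of the 7 genes in every group, with 184 ± 3.45 CPM per kb (SD, n = 3) in WT with DMSO and 508 ± 15.6 with CMA. Gm12250 was next in every group, at 59.6 ± 4.26 CPM per kb in WT with DMSO and 167 ± 3.11 with CMA, a place that rests on the length of the GENCODE interval. Irgm2 held the next place among the 7 in all groups but was not separated from Irgm1 in WT with DMSO (21.5 ± 0.791 and 21.1 ± 1.18 CPM per kb). Tgtp1, Iigp1 and Tgtp2 closed the order in WT, at 15.2, 13.6 and 12.7 CPM per kb with DMSO and 50.7, 45.3 and 45.3 with CMA, and neighbours among them overlapped in both groups. The values of the Tgtp copies are too low, because only reads with a single best position were counted while the full exon length was used. Of their 50-base stretches, 81.2% (Tgtp1) and 86.6% (Tgtp2) also occur in another gene. Their place in the order is therefore uncertain in every group. In STINGgt/gt, Iigp1 stood above Irgm1 and both Tgtp copies, at 28.0 ± 0.333 CPM per kb with DMSO against 24.7 ± 0.171 for Irgm1. With CMA in STINGgt/gt, Irgm2, Iigp1 and Irgm1 overlapped in that order (36.3, 34.5 and 31.4 CPM per kb).

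**Figure D3:**
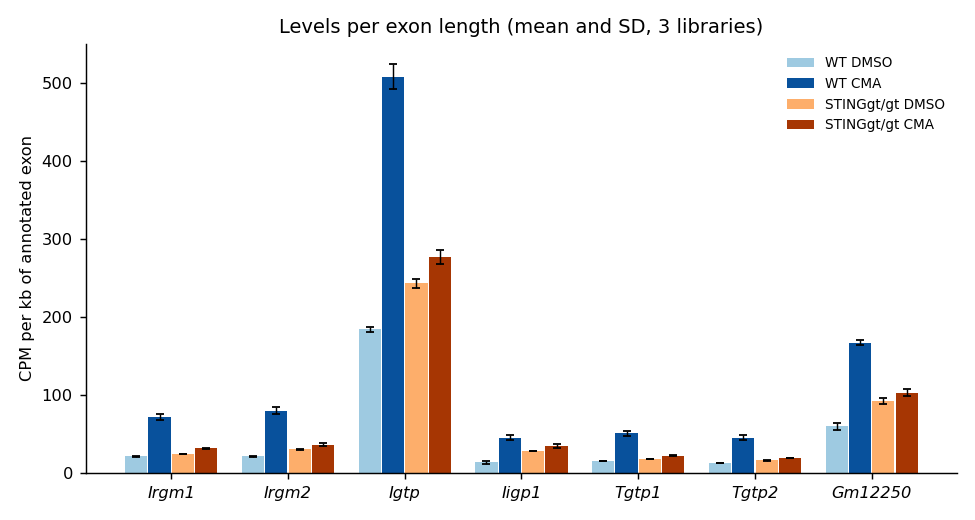
Mean CPM per kb of annotated exon (vertical axis, from 0) for each IRG in the 4 groups, with SD as whiskers (n = 3 libraries). Igtp stands above all others in every group, from 184 to 508, and Gm12250 follows, from 59.6 to 167. The Tgtp copies are undercounted, since only reads with a single best position were counted.

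The make-up of the family was described by the effectors' share of its reads. Of the reads on the 7 genes, the effectors took 29.6%, 28.5% and 30.6% in WT with DMSO and 30.4%, 30.9% and 31.1% with CMA. They took 34.0% in each of the 3 STINGgt/gt libraries with DMSO and 33.9%, 34.7% and 34.3% with CMA. The share was thus lower in every WT library than in every STINGgt/gt library, a difference (WT minus STINGgt/gt) of -4.42 percentage points with DMSO and -3.51 with CMA (exact two-sided permutation test, p = 0.1 for each, the smallest that 3 against 3 can give). CMA moved it by 1.19 points in WT (exact p = 0.2) and by 0.278 in STINGgt/gt (exact p = 0.4). These values moved with the way of counting. Per kilobase the STINGgt/gt value became -0.028 points and the genotype difference with CMA -2.18 points, and without the Tgtp copies the WT value became 0.274 points and the genotype difference with CMA -5.91 points. Iigp1 accounted for most of the genotype contrast, with 9.70% ± 0.889 of the family reads in WT with DMSO and 14.4% ± 0.173 in STINGgt/gt (SD, n = 3). Igtp held the largest share everywhere, from 41.0% ± 0.438 in WT with CMA to 45.7% ± 1.41 in WT with DMSO (SD, n = 3).

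The likeness of profiles was measured as the root mean square difference of log2 CPM over the 12 libraries, each profile centred on its own mean, against the other 13810 genes. Irgm1 and Tgtp1 were each other's nearest gene, 0.043 apart (log2). Tgtp2 had Tgtp1 (0.062) and Irgm1 (0.071) as its nearest, and Irgm2 had Tgtp2 (0.079). Irgm1, Tgtp1 and Tgtp2 also shared Kdm2b, a histone demethylase gene, among their 3 nearest (0.083, 0.081 and 0.074), and Klf3, a transcription factor gene, came next to Irgm2 (0.087). The other members had none of the 7 among their 3 nearest. Igtp was closest to Aff3 (0.071), Cd96 (0.074) and Phf15 (0.078). Gm12250 was closest to Kif13b (0.060), the guanylate-binding protein gene Gbp2 (0.066) and Prox2 (0.097). Iigp1 had the least company: its nearest were Gm8995 (0.123), Igsf3 (0.138) and Npas2 (0.158), and the nearest of the 7 was Gm12250, at 0.216. These distances describe profiles that share libraries and groups and carry no test.

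The wider IRG family responded in the same direction. A list of 10 further IRG genes (Ifi47, Gm4951, Gm4841, Gm5431, 9930111J21Rik1, 9930111J21Rik2, F830016B08Rik, Gm12185, Irgq and Irgc1) had 10 higher and none lower with CMA in WT, with a median log2 difference of 2.37. At the same threshold 33.0% of all genes were higher and 37.4% lower. Ifi47 (Irgd), the only one of them above 100 CPM with DMSO, went from 105, 110 and 113 CPM to 249, 253 and 259 CPM (log2 1.21 ± 0.050 SE, adjusted p = 2.12e-12, edgeR). Gm5431 had the largest value, 4.12 ± 0.175 (SE; adjusted p = 3.07e-12, edgeR), at low levels of 0.439 to 0.704 CPM before and 8.38 to 11.2 CPM after. F830016B08Rik (3.37) and Irgc1 (3.10) were also under 1 CPM with DMSO. Between these came Gm12185 (2.43), Gm4951 (2.37), 9930111J21Rik1 (2.37), 9930111J21Rik2 (2.06) and Gm4841 (2.02). Irgq, a quasi-GTPase of the family, rose least, from 27.2, 25.1 and 27.1 CPM to 59.6, 60.3 and 54.6 CPM (log2 1.14). In STINGgt/gt 1 of the 10 passed, Gm12185 (log2 0.26, adjusted p = 0.0375, edgeR), which shares exon bases with Tgtp1. The share of all genes passing upward was 0.398%. Gm12185 no longer passed under 10 of 19 alternatives, among them leaving out any single STINGgt/gt library.

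Guanylate-binding proteins (GBPs) are interferon-induced GTPases that act on the same vacuoles as the IRGs. Of 11 GBP genes tested, 10 were higher and none lower with CMA in WT (median log2 2.01), beside 33.0% and 37.4% of all genes. Gbp10 (3.07 ± 0.054 SE) and Gbp9 (2.46 ± 0.056 SE) had the largest values, and Gbp10 went from 16.5, 16.7 and 16.7 CPM to 138, 134 and 147 CPM. At the other end, Gbp11 (0.54, adjusted p = 0.0428, edgeR) had overlapping groups between 0.561 and 1.17 CPM. Gbp2b, under 1 CPM in WT, did not pass (log2 -0.61, adjusted p = 0.0836, edgeR). Both calls depend on the processing: Gbp11 no longer passed under 11 of 18 alternatives, DESeq2 among them (adjusted p up to 0.179), and Gbp2b passed downward under 4 of 19. In STINGgt/gt 3 of the 11 passed, all upward: Gbp2 (0.28), Gbp6 (0.25) and Gbp4 (0.24), sizes within the range of the IRGs there. The share of all genes passing upward was 0.398%. These calls were not firm: Gbp2 no longer passed under 7, Gbp4 under 8 and Gbp6 under 3 of 19 alternatives. Leaving out single libraries gave 0 to 4 GBPs. Under DMSO 9 of the 11 were lower in WT than in STINGgt/gt and none was higher (median log2 -0.67), the same side as the 7 IRGs. Of the 10 further IRG genes, 4 were lower there, 1 was higher (Irgq, log2 0.20) and 5 did not pass. Over all genes, 19.8% were lower and 22.9% higher in that comparison.

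Interferon signals reach these genes through receptors, Janus kinases and transcription factors. Of 17 genes of this pathway, 12 were higher and 3 lower with CMA in WT, beside 33.0% and 37.4% of all genes. The median log2 difference of the 17 was 0.97, also with Ifnb1 placed at its bound. Irf7, the factor that amplifies interferon production, went from 6.74, 11.2 and 9.46 CPM to 479, 482 and 459 CPM (log2 5.69 ± 0.144 SE, adjusted p = 5.59e-15, edgeR). Ifnb1, which encodes interferon-β, had at most 1 count per library with DMSO and 34 to 58 counts with CMA in WT. Set against a floor of 3 counts per library, this was at least 13.4-fold higher. In STINGgt/gt Ifnb1 had at most 1 count in every library of either treatment.

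Ifng, the gene for interferon-γ and the classical inducer of IRGs, moved the other way in WT. Its level was 57.5, 56.3 and 56.6 CPM with DMSO and 36.3, 35.2 and 30.9 CPM with CMA (log2 -0.73 ± 0.081 SE, adjusted p = 5.19e-07, edgeR). In STINGgt/gt it was 12.6, 12.2 and 11.0 CPM with DMSO and 11.7, 8.55 and 9.20 CPM with CMA. Ifng was therefore higher in every WT library with DMSO than in every STINGgt/gt library (log2 2.25, adjusted p = 1.05e-11, edgeR), whereas the IRGs were lower. Several markers of CD8 and natural killer cells moved in the direction of Ifng. Between genotypes with DMSO 4 of 6 were higher in WT (Cd8a 2.06, Klrd1 1.31) and Eomes was lower (-0.79). From DMSO to CMA in WT 4 of 6 fell (Cd8a -0.83, Klrd1 -0.66) and Eomes rose (0.55). Between genotypes with CMA, where Ifng was again higher in WT (log2 1.80), 3 were higher and 3 lower. Over all genes, 22.9% were higher in WT with DMSO and 37.0% with CMA, and 37.4% fell with CMA in WT. The part of these markers in the Ifng values was not tested. Socs3, a feedback inhibitor of cytokine receptors, showed the same arrangement, with -0.37 for CMA in WT (adjusted p = 8.06e-06, edgeR) and 2.32 between genotypes with DMSO. Irf1, a factor downstream of interferon-γ that was chosen after its values were seen, moved in the direction of the IRGs in these comparisons. It had 235, 240 and 220 CPM in WT with DMSO, 438, 443 and 481 with CMA, 311, 317 and 323 in STINGgt/gt with DMSO and 381, 393 and 387 with CMA. It was the only 1 of the 17 that rose in STINGgt/gt (log2 0.29, adjusted p = 0.00383, edgeR), while Ifngr2 (-0.27) and Socs3 (-0.25) fell there. Over all genes, 0.398% passed upward and 0.920% downward. The rise of Irf1 passed under all 19 alternatives, whereas Ifngr2 no longer passed under 6 and Socs3 under 10 of 19. Irf1 was also lower in WT than in STINGgt/gt with DMSO (log2 -0.45, adjusted p = 7.14e-07, edgeR). It was not alone in this: of the 17, 4 were lower in WT there, Irf7 among them (log2 -0.89). Another 6 were higher and 7 did not pass. Over all genes, 19.8% were lower and 22.9% higher in that comparison.

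IRGs and GBPs are brought to vacuoles with the help of the ATG8 conjugation machinery of autophagy, and ubiquitin adaptors follow them there. Of 15 tested, 8 were higher and 5 lower with CMA in WT, beside 33.0% and 37.4% of all genes, with a median log2 difference of 0.13. The E3 ligase gene Trim21 (1.00 ± 0.051 SE) and the adaptor gene Sqstm1, which encodes p62 (0.81 ± 0.043 SE), had the largest values. Gabarapl1, an ATG8 homologue, fell by 1.39 on the log2 scale and Atg7, the E1-like enzyme of the system, by 0.47. In STINGgt/gt 0 of the 15 passed with edgeR and 0 with DESeq2, and 1 had an unadjusted p under 0.05, beside 1.32% of all genes that passed with edgeR.

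**Figure D4:**
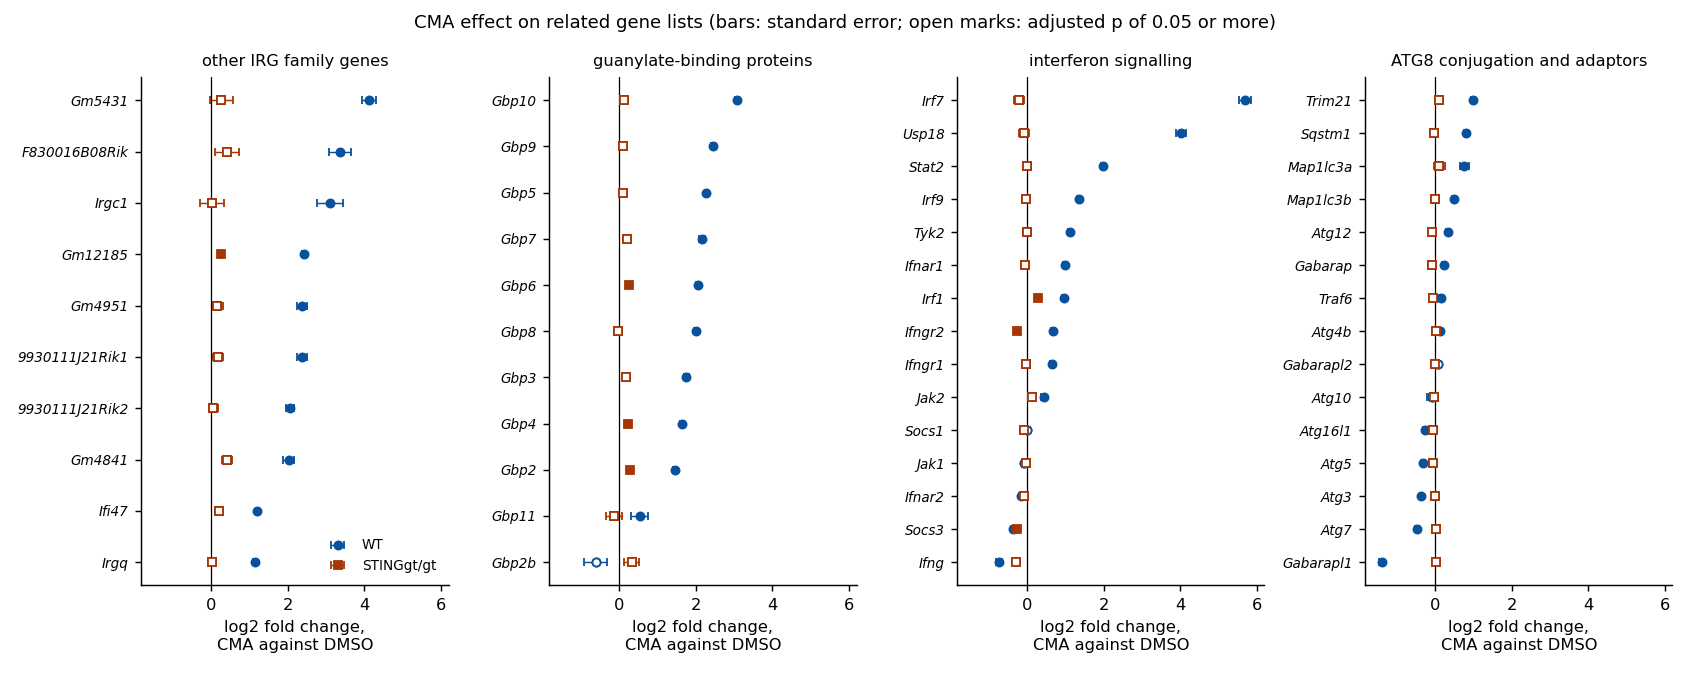
Log2 fold change of CMA against DMSO (horizontal axis) in WT (circles) and STINGgt/gt (squares) for further IRG genes, GBPs, interferon signalling and ATG8 genes, with SE as bars and open marks for an adjusted p of 0.05 or more. Ifnb1 is left out because its counts without CMA are at the floor, and 1 further gene of that list is not shown. The IRG and GBP genes lie to the right in WT, except Gbp2b, and Irf7 reaches 5.69.

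The chromosome 11 genes sit among relatives. Within 50 kb of a member, 11 other genes were tested. Of these, 9 were higher and 1 lower with CMA in WT, beside 33.0% and 37.4% of all genes. The 5 further IRG genes among them, Gm5431, Gm12185, 9930111J21Rik1, 9930111J21Rik2 and Ifi47, were all higher. Of the 6 that belong to no list, 4 were higher and 1 was lower, with the highest value in the pseudogene BC023105 near Iigp1 (2.50). The one that fell was Mrpl22, a mitochondrial ribosomal protein gene next to Gm12250 (-0.54, adjusted p = 9.47e-07, edgeR), while Gm12184 had -0.58 and did not pass (adjusted p = 0.0925, edgeR). Olfr56, an olfactory receptor gene annotated across Tgtp1 and Tgtp2 on the opposite strand, had 1.76 and shares no exon base with either copy. These neighbours were named after their values were seen.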

How the data were processed

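RNA was sequenced from 12 cultures of CD4+ T cells with a stranded mRNA kit. The authors deposited whole-number counts of reads per Ensembl gene, without normalization, and a log2 expression table made by the authors. In that table each value equals the log2 of count plus 0.5, shifted by 1 factor per library, and it lacks Gm12250. The submitters' processing notes name cutadapt 1.3, STAR 2.4.0f1, HTSeq 0.6.1, RSEM 1.2.16 and GRCm38, while the annotation release and the strand setting are not given in the sources used here. Between 27.8% and 30.3% of entries were alignments that were not unique, and 4.86% to 7.16% lay outside genes. These tallies and ambiguous reads (0.594% to 0.635%) stayed out of library sizes and tests.

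Counts were fitted with edgeR 4.0.16 (R 4.3.3) by glmQLFit and glmQLFTest, with TMM scaling, filterByExpr by group and no block, the 4 groups sharing 1 model. The threshold was an adjusted p under 0.05 (Benjamini-Hochberg over 13811 genes). Shares were compared by exact permutation tests (scipy 1.17.1). Exon lengths and positions came from GENCODE M21 and promoters from RefSeq. The model was tested on simulated data for CMA against DMSO in WT, where edgeR recovered 188 of 200 changed genes among 13578 with 9 false calls. DESeq2 recovered 182, with 14 false calls.

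The 7 genes, the lists and the tests were chosen with earlier results of these data known. The genes named are the 7 members, all further IRG genes, the 2 largest and 2 smallest changes in WT of each other list, and the 3 nearest profiles of each member. Outside this rule, and after their values were seen, the text names Irf1, list genes that passed in STINGgt/gt, some cell type markers and neighbours in no list. A gene of the interferon signalling list is counted but not reported by name here. Alternatives were library-size scaling, DESeq2 1.42.0, limma 3.58.1 on the authors' log2 table, no filter (22118 genes), only the groups compared, a replicate block, an adjusted p under 0.01, leaving out each library, summed Tgtp copies, and shares per kilobase or without these copies. Precision is limited by 3 libraries per group.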

Additional observations from a re-analysis of the deposited data

Results flagged for a closer look

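All 7 IRGs responded to CMA by unlike amounts in the genotypes, by a test of the difference itself (edgeR interaction, adjusted p under 0.05, passed upward by 27.2% of all genes). The log2 effect in WT minus that in STINGgt/gt was 1.41 for Irgm1, 1.62 for Irgm2, 1.28 for Igtp, 1.43 for Iigp1, 1.44 for Tgtp1, 1.60 for Tgtp2 and 1.33 for Gm12250. Among the further IRG genes the difference was 1.01 for Ifi47, 2.21 for Gm4951, 1.62 for Gm4841, 3.86 for Gm5431 and 2.19 for 9930111J21Rik1. It was 2.01 for 9930111J21Rik2, 2.95 for F830016B08Rik, 2.17 for Gm12185, 1.11 for Irgq and 3.08 for Irgc1. Gm5431, F830016B08Rik and Irgc1 were under 1 CPM in both groups with DMSO.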

How the results depend on the processing

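In WT, between genotypes and for the interaction, all 7 IRGs kept their direction and passed the threshold under every alternative run (limma on the log2 table covers 6, without Gm12250). In STINGgt/gt the number of IRGs that passed was 5 and became 1 at an adjusted p under 0.01 and 2 with limma on the log2 table, and it ranged from 1 to 6 when single libraries were left out. Of all genes in STINGgt/gt, 55 passed upward and 127 downward. These numbers became 268 and 388 when the fit held only the groups compared, 176 and 257 with no filter, 122 and 205 by DESeq2, 130 and 233 under the replicate block, and 14 and 41 at an adjusted p under 0.01, while limma called 31 higher. Leaving out single libraries gave 14 to 180 higher and 41 to 289 lower. The cause was not tested.

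Of the further IRG genes, 1 passed in STINGgt/gt. This became 2 with library-size scaling, DESeq2, no filter, only the groups compared or the replicate block, 0 at an adjusted p under 0.01 or with limma, and 0 to 2 without single libraries. For the 3 GBPs it became 1 at an adjusted p under 0.01 or with limma, 5 with no filter or only the groups compared, and 0 to 4 without single libraries. For the 3 interferon signalling genes it became 1 at an adjusted p under 0.01 and 1 to 3 without single libraries.

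The effectors' share of family reads changed by 1.19 points with CMA in WT, which became 0.274 without the Tgtp copies and 0.661 to 1.71 without single libraries. In STINGgt/gt 0.278 became -0.028 per kilobase and 0.0756 to 0.469 without single libraries. WT minus STINGgt/gt with CMA was -5.91 without the Tgtp copies, -2.18 per kilobase and -3.7 to -3.3 without single libraries. With DMSO it was -6.03, -3.22 and -4.95 to -3.89.

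Replicate numbers were not used for pairing, since the labels give them no shared animal or batch. For same-numbered DMSO and CMA libraries, the deviations of log2 CPM from the group means had correlations of 0.00195 to 0.132. That the samples were unpaired is not shown by this. In the sample descriptions, the names of same-numbered DMSO and CMA libraries of a genotype share a first digit, except for STINGgt/gt replicate 2. What that digit marks is not given, and the replicate block did not follow it for that replicate. With the replicate number as a block, 6 IRGs passed in STINGgt/gt, beside 0.941% of all genes upward, and 7 passed in WT. Among single genes, 83 of the results under an alternative no longer passed, 12 passed newly and 1274 stayed as they were.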
